A study of Mus musculus with 9 samples.

Results

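The cell cycle and DNA replication genes of the mouse liver were followed as a set of 41 genes, chosen by symbol from the 25781 genes of the deposited table. All 41 had a row there, and all 41 passed the filter on low values. By role they comprised 16 genes of DNA replication, 6 genes that control the entry into S phase (G1/S control) and 19 genes of mitosis. The livers came from Swiss mice aged 10 to 12 weeks, in 3 groups of 3 libraries. Mice of the selenite group received 40 mg/kg of β-CYP and 50 µg/kg of sodium selenite, Na2SeO3. Mice of the β-CYP group received 40 mg/kg of β-CYP alone, and the third group was the control. The series' design describes β-CYP as the agent that injures the liver and the group with selenite as the one under repair. The labels leave β-CYP unexplained, and the name is used as they give it. Selenite was sequenced only together with β-CYP, and the labels give no sex, route or duration. Nor do they say that the libraries of a group are different animals, so every p-value here covers the spread between libraries, part or all of which may be technical.

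A dividing cell copies its DNA once and then separates the copies. Cyclins of the D and E types with their kinases release the E2F transcription factors from the pocket proteins, and E2F factors switch on the genes that license origins, run the fork and supply nucleotides. Later in the cycle the MuvB complex, with B-Myb and Foxm1, switches on the mitotic genes through a promoter element called CHR, and in resting cells the DREAM complex holds both sets of genes down. Adult hepatocytes rarely divide, but re-enter the cycle when liver tissue is lost or injured.

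The promoters of the 2 classes differ in these elements, and 4 of them are printed to show both kinds: Mcm5 and Mcm6 of replication, and Mki67 and Top2a of mitosis. They were chosen after their values were seen, from the genes called between selenite and β-CYP livers. Not every called gene had such elements in its window. Each window runs from 250 bases before the annotated start of the gene to 50 bases after it, on the strand of the gene, in RefSeq's GRCm38.p6 annotation. The Mcm5 window is chr8:75109259-75109558 on the plus strand. The Mcm6 window is chr1:128359656-128359955, the Mki67 window chr7:135716330-135716629 and the Top2a window chr11:99024140-99024439, all on the minus strand. Capitals mark matches to the motifs searched on both strands: E2F-like (TTTCGCGC or TTTGGCGC or TTCCCGC or GCGGGAA), CHR-like (TTTGAA or TTCGAA) and the CCAAT box, and overlapping matches run together.
Mcm5: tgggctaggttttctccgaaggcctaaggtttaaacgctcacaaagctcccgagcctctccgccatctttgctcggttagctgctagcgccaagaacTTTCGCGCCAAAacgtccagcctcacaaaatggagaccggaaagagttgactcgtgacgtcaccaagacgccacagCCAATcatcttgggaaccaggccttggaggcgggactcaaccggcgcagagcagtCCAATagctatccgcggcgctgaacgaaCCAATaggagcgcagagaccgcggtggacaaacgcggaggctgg
Mcm6: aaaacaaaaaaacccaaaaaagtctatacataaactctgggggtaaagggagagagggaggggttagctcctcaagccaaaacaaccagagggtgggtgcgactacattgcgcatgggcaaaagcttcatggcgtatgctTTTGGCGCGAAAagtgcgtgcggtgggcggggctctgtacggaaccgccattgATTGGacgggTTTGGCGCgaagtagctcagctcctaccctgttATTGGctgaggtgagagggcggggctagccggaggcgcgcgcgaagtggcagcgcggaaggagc
Mki67: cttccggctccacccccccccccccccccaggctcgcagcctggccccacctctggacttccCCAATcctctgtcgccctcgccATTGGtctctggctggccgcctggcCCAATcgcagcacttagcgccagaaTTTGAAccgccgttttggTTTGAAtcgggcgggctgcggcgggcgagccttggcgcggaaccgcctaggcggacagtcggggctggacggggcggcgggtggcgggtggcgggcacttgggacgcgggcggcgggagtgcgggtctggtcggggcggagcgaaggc
Top2a: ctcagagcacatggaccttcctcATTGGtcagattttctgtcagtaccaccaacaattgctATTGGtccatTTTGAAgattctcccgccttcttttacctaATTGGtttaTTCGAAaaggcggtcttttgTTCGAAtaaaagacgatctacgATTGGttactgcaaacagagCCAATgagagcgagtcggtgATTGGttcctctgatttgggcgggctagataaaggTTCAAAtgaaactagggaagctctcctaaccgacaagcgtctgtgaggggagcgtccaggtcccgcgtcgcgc

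With the annotated start base counted as 0, the Mcm5 window held a pair of overlapping E2F-like matches at positions -153 to -142, and the Mcm6 window a pair at -110 to -99 and a single match at -47 to -40. The Mki67 window had CHR-like matches at -116 to -111 and at -98 to -93, and none of the E2F-like letters. The Top2a window had 4 CHR-like matches, the last of them at -23 to -18, and 6 CCAAT boxes. Windows were found for 32 of the 41 genes, and none was matched for Ccna2, Foxm1, Mcm4, Gins1, Ccnd1, Tpx2, Aurkb, Kif20a and Ccne2. An E2F-like match stood in 7 of 14 replication windows, 1 of 4 G1/S control windows and 1 of 14 mitotic windows, against 5.40% of all 27025 windows. Of the replication genes called lower in selenite livers against β-CYP, Mcm5 and Mcm6 had such matches, and Pcna, Rrm2 and Tk1 had none. Mcm3, Mcm7, Cdc6, Cdt1 and Rrm1 had matches and were not called in that comparison. A CHR-like match stood in 11 of 14 mitotic windows and 3 of 14 replication windows, against 19.4% of all windows. The same 11 mitotic and 3 replication windows also held a CCAAT box, against 7.70% of all windows with both. A CCAAT box, with or without a CHR-like match, stood in 13 of 14 mitotic windows, against 37.9% of all windows. It also stood in 10 of 14 replication windows and 1 of 4 G1/S control windows. These matches describe the letters of the windows and are not binding data.

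**Figure D1:**
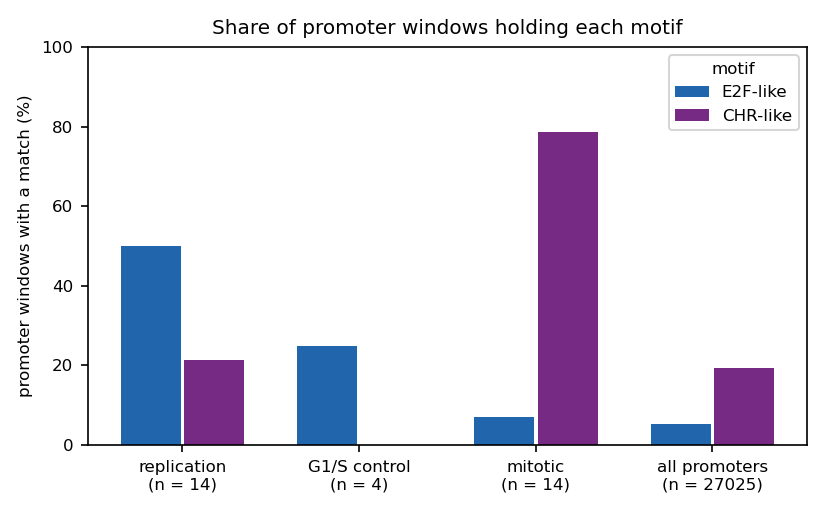
Share of promoter windows (%, y axis) with at least 1 E2F-like match or at least 1 CHR-like match, for replication genes (14 windows), G1/S control genes (4), mitotic genes (14) and all 27025 windows. E2F-like matches were in 50.0% of replication windows and 7.14% of mitotic windows, and CHR-like matches in 78.6% of mitotic windows and 21.4% of replication windows.

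Values are scaled counts, that is the reads of a gene divided by the size factor of its library. One read was worth 0.921 to 1.14 scaled counts, and libraries held 28630269 to 36029560 reads. The mitotic genes were scarce in these livers: their mean over the 9 libraries ran from 5.58 scaled counts (Bub1) to 125 (Mki67), with 17 of 19 between 10 and 100. The replication genes ran from 4.09 (Cdc6) to 1677 (Mcm10), and the G1/S control genes from 59.8 (Ccne2) to 758 (Cdk4). Per kilobase of exon, the median mitotic gene stood at the 28.7th percentile of all tested genes, the median replication gene at the 48.9th and the median G1/S control gene at the 50.0th. All 8 hepatocyte markers were detected in every group. In selenite livers 7 of the 8 fell against β-CYP, with a median log2 change of -0.34, and against control 7 fell and Apoa1 rose, with a median of -0.30. Of all tested genes 12.3% were called lower against β-CYP, and 14.5% lower and 14.4% higher against control. Against β-CYP the mean was 0.380 times for Tat, 0.635 times for Hnf4a and 0.770 times for Alb. In β-CYP livers against control 3 of the 8 rose and 2 fell (7.72% and 8.58% of all tested genes), with a median of 0.03. Differences in bulk tissue can come from fewer cells of a type or from less RNA per cell, and these cannot be told apart.

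Transcripts of other cell types differed between the groups. Marker sums are reads that were not divided by the size factors, which ran from 0.875 (control library 3) to 1.09 (selenite library 1). Their ranges therefore also carry differences in size factor. The summed reads of the 10 pancreatic acinar markers were 36397 to 37189 in selenite libraries, 1157 to 1251 in β-CYP libraries and 977 to 1075 in control libraries, with 0 markers undetected in the selenite group, 5 undetected in all β-CYP libraries and 6 in all control libraries. Nearly all β-CYP and control reads of this list were Cela1, with 1150, 1193 and 1226 in β-CYP libraries and 1056, 972 and 999 in control libraries. The 14 testis germ cell markers summed to 7 to 23 reads in selenite libraries, 3 to 13 in β-CYP libraries and 301 to 374 in control libraries, with 9, 9 and 2 markers at 0 in all libraries of those groups. The 10 lymphocyte markers summed to 1009 to 1041 reads in selenite libraries, 746 to 859 in β-CYP libraries and 579 to 680 in control libraries. Ptprc alone had 594, 585 and 611 reads in selenite libraries, 336, 424 and 409 in β-CYP libraries and 373, 347 and 328 in control libraries. Against β-CYP 9 of the 10 had a log2 change above 0 in selenite livers, with 3 called. Ighm was below 0, at 311, 308 and 321 reads in selenite libraries and 369, 366 and 399 in β-CYP libraries. The 9 macrophage and Kupffer cell markers summed to 15498 to 16289 reads in selenite libraries, 11296 to 12672 in β-CYP libraries and 10863 to 12089 in control libraries, and the 10 neutrophil markers to 761 to 847 in selenite libraries, 546 to 581 in β-CYP libraries and 229 to 258 in control libraries. The neutrophil marker Cebpe went the other way, with 67, 66 and 69 reads in control libraries, 0 in each β-CYP library and 7, 0 and 0 in selenite libraries. The 9 erythroid markers summed to 23039 to 23635 reads in selenite libraries, 23952 to 28006 in β-CYP libraries and 25486 to 29117 in control libraries, and the 5 cholangiocyte markers to 2039 to 2094 in selenite libraries, 6353 to 7282 in β-CYP libraries and 1972 to 2401 in control libraries. Most of the cholangiocyte reads were Spp1, and the other 4 markers summed to 183 to 258 in selenite libraries, 192 to 232 in β-CYP libraries and 97 to 155 in control libraries. The sums of macrophage and neutrophil markers were thus highest in the selenite libraries, where the mitotic genes described next were lowest. The erythroid sum was lowest in the selenite libraries. Against β-CYP 8 of the 9 erythroid markers had a log2 change below 0 (47.1% of all tested genes), and Epor was above 0. Hba-a1, Alas2 and Klf1, 3 of the 9, were called lower, beside 12.3% of all tested genes. The lymphocyte sum was also highest in the selenite libraries, but against β-CYP this lay in Ptprc. The reads of the other lymphocyte markers together overlapped between selenite and β-CYP libraries. The part of these cells, and of the lower hepatocyte markers, in the results was not tested.

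The selenite livers differed from the β-CYP livers in genes of all 3 classes. Of the 41 genes, 8 fell in selenite livers against β-CYP livers: the helicase subunits Mcm5 and Mcm6, the sliding clamp Pcna, the nucleotide enzymes Rrm2 and Tk1, the transcription factor E2f1, and the mitotic genes Mki67 and Top2a. The kinase Cdk4 and the cyclin Ccne1 rose. These 10 calls are 24.4% of the 41 genes, and 23.9% of the 20145 genes tested were called in the same comparison, so the count of calls was near the background; by direction, 12.3% of all tested genes were called lower and 11.6% higher. Against control, 13 genes were called in selenite livers, or 31.7%, against 28.9% of all tested genes, 10 of them lower and 3 higher (14.5% and 14.4% of all tested genes). In β-CYP livers against control only Mcm10 was called, or 2.44% of the 41 genes, against 16.3% of all tested genes (8.58% called lower and 7.72% higher). A gene was called where its limma adjusted p, over all genes tested, was under 0.05. The 3 comparisons share their libraries pairwise and are not independent.

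**Figure D2:**
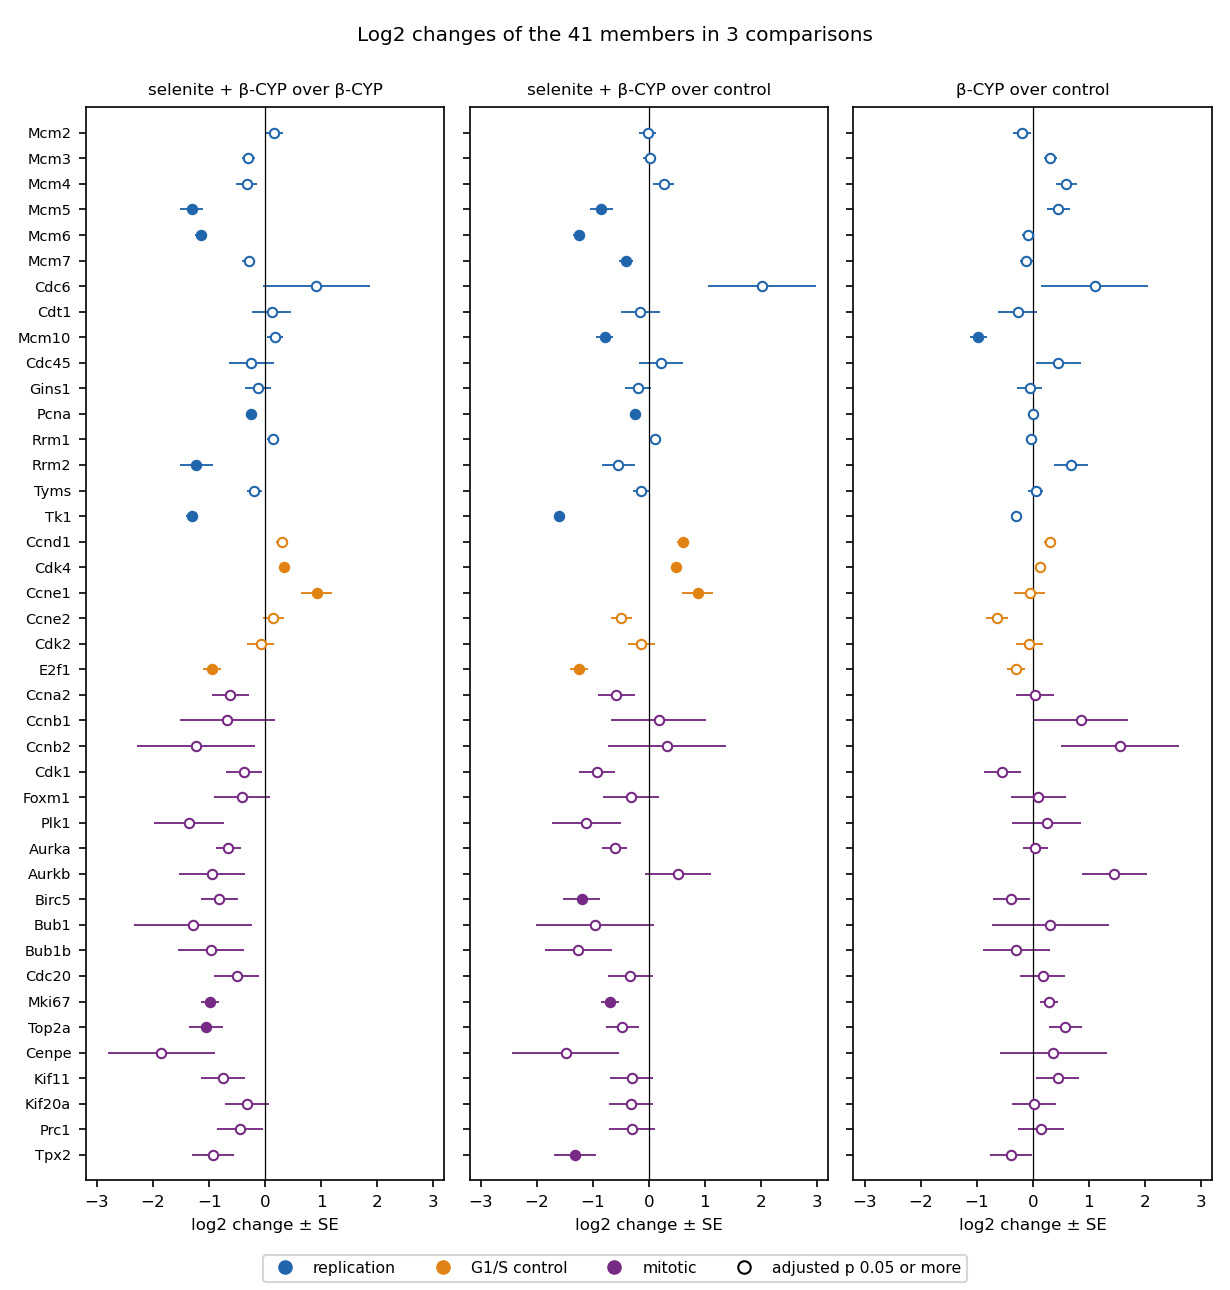
Log2 change ± SE (x axis, on the log2(scaled count + 1) scale) of all 41 genes in selenite livers over β-CYP livers (left), selenite livers over control (middle) and β-CYP livers over control (right), coloured by class. Filled points passed the test. In the left panel all 19 mitotic genes lie below 0, from -1.85 to -0.33, while replication genes spread from -1.31 to 0.92.

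Among the genes of origin licensing, the subunits of the Mcm2 to Mcm7 helicase did not move as one. Mcm5 had 50.6, 43.4 and 70.9 scaled counts in selenite livers, 137, 129 and 139 in β-CYP livers, and 109, 106 and 81.2 in control livers. Every selenite library lay below every other library, and every β-CYP library above every control. The mean of 55.0 ± 14.3 in selenite livers was 0.408 times that of β-CYP livers (135 ± 5.42) and 0.557 times that of control livers (98.7 ± 15.3; SD, n = 3 each). Mcm5 fell by a log2 change of -1.31 ± 0.20 (SE) against β-CYP (limma adjusted p = 0.00109) and of -0.85 ± 0.20 against control (limma adjusted p = 0.0105). Its difference in β-CYP livers against control, 0.46 ± 0.20, did not pass the test (limma adjusted p = 0.175).

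Mcm6, the partner of Mcm2 and Mcm4 in the ring, had 80.1, 72.9 and 71.9 scaled counts in selenite livers, 168, 163 and 172 in β-CYP livers, and 175, 183 and 177 in control livers. The selenite values were less than any other, and the other 6 libraries lay close together. Mcm6 fell, by a log2 change of -1.15 ± 0.11 against β-CYP (limma adjusted p = 3.3e-05) and of -1.24 ± 0.11 against control (limma adjusted p = 1.6e-05). Mcm7, another ring subunit, had 234, 284 and 274 scaled counts in selenite livers, 318, 376 and 280 in β-CYP livers, and 353, 355 and 341 in control livers. It was called against control, at -0.41 ± 0.12 on the log2 scale (limma adjusted p = 0.0274), and the selenite and β-CYP values overlapped. That call was lost without control library 1, 2 or 3 or selenite library 1 or 3 (limma adjusted p from 0.0531 to 0.0938) and with equal library totals (log2 change -0.27, limma adjusted p = 0.132). It was also lost without the intensity trend. Mcm7 shares 321 exon bases with Ap4m1 and 64 with Cops6, both on the opposite strand.

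The other licensing genes passed no test. Mcm2 had 149, 136 and 133 scaled counts in selenite livers, 120, 102 and 156 in β-CYP livers, and 136, 145 and 145 in control livers, with all groups overlapping. Mcm3 averaged 143 ± 2.35 scaled counts in selenite livers, 176 ± 11.9 in β-CYP livers and 142 ± 13.9 in control livers, and Mcm4 averaged 149 ± 25.7 in selenite livers, 186 ± 7.72 in β-CYP livers and 125 ± 28.8 in control livers (SD, n = 3 each). Both were highest in the β-CYP livers, with no overlap with control, at log2 changes of 0.31 ± 0.11 (limma adjusted p = 0.0993) and 0.60 ± 0.19 (limma adjusted p = 0.0611). Mcm4 was called there under 3 of 21 alternative settings, among them without control library 1, where the count of replication genes called in β-CYP livers became 2. Cdt1, which loads the helicase, averaged 79.0 ± 32.4 scaled counts in selenite livers, 71.3 ± 25.1 in β-CYP livers and 84.7 ± 22.7 in control livers. The loading factor Cdc6 had 0 to 11.1 scaled counts in any library, too few to compare.

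Of the genes that act at the fork, Mcm10, a factor for helicase activation, was the one gene called in β-CYP livers. It had 1354, 1238 and 1568 scaled counts in selenite livers, 1182, 1489 and 1035 in β-CYP livers, and 2792, 2078 and 2353 in control livers. Both treated groups lay below control without overlap, and overlapped each other. Mcm10 fell by a log2 change of -0.97 ± 0.15 in β-CYP livers against control (limma adjusted p = 0.00149) and of -0.79 ± 0.15 in selenite livers against control (limma adjusted p = 0.00282). Between selenite and β-CYP livers it was 0.18 ± 0.15 (limma adjusted p = 0.465). Mcm10 gave 218 scaled counts per kilobase of exon, against 9.11 for Cdc45 and 45.3 for Gins1, the partners it works with at the fork.

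Pcna, the clamp that holds polymerases on DNA, had 494, 468 and 474 scaled counts in selenite livers, 532, 603 and 574 in β-CYP livers, and 541, 598 and 574 in control livers. The selenite libraries were lower than all others by a small margin, a log2 change of -0.25 ± 0.07 against β-CYP (limma adjusted p = 0.0269) and of -0.25 ± 0.07 against control (limma adjusted p = 0.0213). With equal library totals both became -0.12, and neither was called (limma adjusted p = 0.286 for the first). The first call was also lost without β-CYP library 2 or 3 or selenite library 2 or 3 (limma adjusted p from 0.0679 to 0.0916), and the second without control library 2 or 3 or selenite library 2 or 3 (0.0526 to 0.0680). The helicase factors Cdc45 and Gins1 averaged 30.2 ± 3.86 and 63.3 ± 9.48 scaled counts in selenite livers, 37.6 ± 13.4 and 70.8 ± 18.9 in β-CYP livers, and 28.0 ± 15 and 72.0 ± 5.99 in control livers (SD, n = 3 each), and passed no test.

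Of the nucleotide enzymes, the salvage enzyme thymidine kinase Tk1 differed most. It had 188, 176 and 150 scaled counts in selenite livers, 416, 409 and 445 in β-CYP livers, and 528, 485 and 546 in control livers. The 3 groups did not overlap, and the selenite mean was 0.404 times that of β-CYP and 0.329 times that of control. Tk1 fell by a log2 change of -1.31 ± 0.10 against β-CYP (limma adjusted p = 8e-06) and of -1.60 ± 0.10 against control (limma adjusted p = 2e-06). In β-CYP livers against control it was -0.29 ± 0.10 (limma adjusted p = 0.0758), and this passed under 3 of 21 alternatives: with only the 2 groups in the fit, with voom weights, and without selenite library 3, which enters the shared spread. Exons of Tk1 and of Afmid on the opposite strand overlap by 83 bases, and whether the counting used strand was not given in the sources used here. Afmid had 649, 623 and 1930 scaled counts in selenite livers, 1255, 1374 and 1176 in β-CYP livers, and 1240, 1197 and 3463 in control livers, with a high selenite library in which Tk1 was lowest of its group and a high control library in which Tk1 was highest.

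Rrm2, the regulated subunit of ribonucleotide reductase, had 31.3, 60.9 and 66.1 scaled counts in selenite livers, 122, 151 and 91.5 in β-CYP livers, and 85.0, 64.4 and 73.2 in control livers. Selenite values were below all β-CYP values but overlapped control. The log2 change was -1.23 ± 0.30 against β-CYP (limma adjusted p = 0.0140). The call was lost with only the 2 groups in the fit and without β-CYP library 2 (log2 change -1.06, limma adjusted p = 0.0567). Without that library 3 replication genes were called in selenite livers against β-CYP, in place of 5. The steady subunit Rrm1 averaged 424 ± 14.0 scaled counts in selenite livers, 389 ± 46.5 in β-CYP livers and 394 ± 25.4 in control livers, and thymidylate synthase Tyms averaged 162 ± 17.8 in selenite livers, 185 ± 12.2 in β-CYP livers and 179 ± 28.4 in control livers (SD, n = 3 each). Neither passed a test.

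As a class, 5 of 16 replication genes were called in selenite livers against β-CYP and 6 of 16 against control, all lower, beside 12.3% and 14.5% of all tested genes called lower. The median log2 change of the 16 was -0.25 against β-CYP and -0.17 against control, beside 0.02 and 0.03 for all tested genes, and -0.02 in β-CYP livers against control, beside 0.00. With equal library totals the first became -0.12 (beside 0.14 for all tested genes) and the second -0.04 (beside 0.16). The second also became -0.06 without selenite library 3 and -0.30 with quantile normalization, and the third lay between -0.06 and 0.03 under the alternatives run. Groups did not overlap for 7 of 16 genes in selenite livers against β-CYP, all lower, where 18.5% of all tested genes were lower without overlap. In β-CYP livers against control 6 of 16 had an unadjusted limma p under 0.05, beside 27.9% of all tested genes. Of these, Mcm3, Mcm4, Mcm5 and Rrm2 were higher, and Mcm10 and Tk1 lower.

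**Figure D3:**
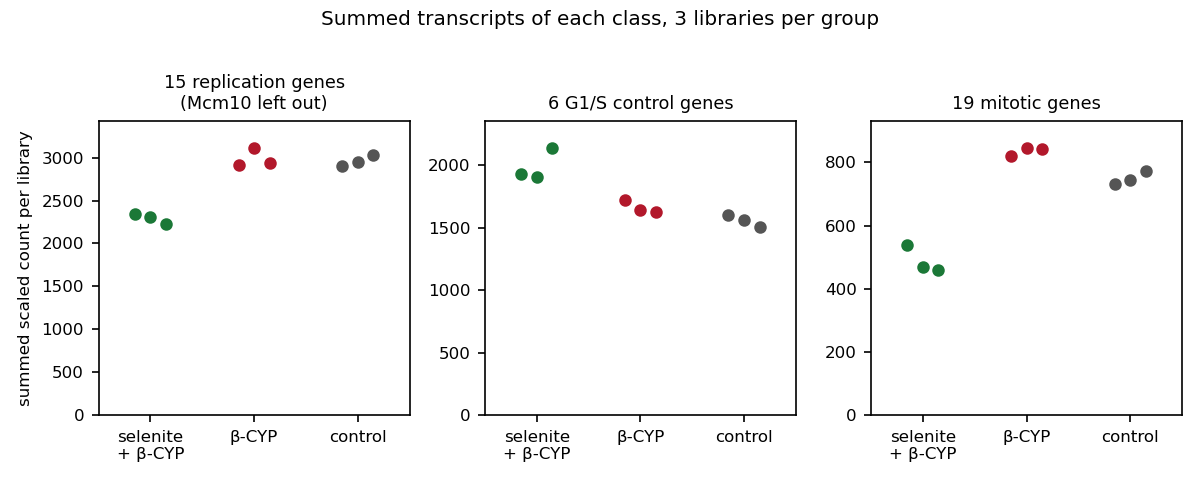
Summed scaled counts per library (y axis from 0) of 15 replication genes, 6 G1/S control genes and 19 mitotic genes, one point per library, in selenite, β-CYP and control livers. Replication and mitotic sums are lowest in the 3 selenite libraries, and G1/S control sums highest there.

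The summed scaled counts give weight to the genes with most reads. Without Mcm10, which was set aside after its values were seen because it holds the largest share of the reads, the replication genes summed to 2348, 2302 and 2230 in selenite livers, 2917, 3111 and 2935 in β-CYP livers, and 2901, 2948 and 3033 in control livers. With Mcm10 the sums were 3702, 3540 and 3798 in selenite livers, 4099, 4600 and 3970 in β-CYP livers, and 5693, 5026 and 5387 in control livers. The 6 G1/S control genes summed to 1932, 1903 and 2136 in selenite livers, 1722, 1640 and 1625 in β-CYP livers, and 1598, 1562 and 1504 in control livers. The G1/S control sum was thus highest where the replication sum was lowest. Cdk4 and Ccnd1 made up most of that sum and were highest in selenite livers, as was Ccne1. The means of Ccne2, Cdk2 and E2f1 were highest in control livers.

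Among the G1/S control genes, Cdk4 and Ccne1 rose in selenite livers against both other groups, and Ccnd1 rose against control. Cyclin D1, Ccnd1, had 636, 654 and 612 scaled counts in selenite livers, 571, 493 and 487 in β-CYP livers, and 489, 392 and 376 in control livers. The selenite libraries were above all others, with a log2 change of 0.61 ± 0.11 against control (limma adjusted p = 0.00192) and of 0.30 ± 0.11 against β-CYP, which did not pass (limma adjusted p = 0.0739) but did under 5 of 21 alternative settings, with the lowest adjusted p at 0.0256. In β-CYP livers against control it was 0.31 ± 0.11 (limma adjusted p = 0.0818), which also passed without control library 1. The Ccnd1 exons overlap those of LTO1 on the opposite strand over 1100 bases, and LTO1 had 169, 217 and 209 scaled counts in selenite livers, 132, 204 and 166 in β-CYP livers, and 182, 197 and 167 in control livers.

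Cdk4, the kinase that cyclin D1 activates, had 828, 862 and 1040 scaled counts in selenite livers, 691, 695 and 752 in β-CYP livers, and 646, 682 and 626 in control livers. The groups did not overlap, and selenite livers were highest. Cdk4 rose by a log2 change of 0.35 ± 0.09 against β-CYP (limma adjusted p = 0.0169) and of 0.48 ± 0.09 against control (limma adjusted p = 0.00251). The call against β-CYP was lost without β-CYP library 1 or 2 (limma adjusted p = 0.0577 and 0.0558), and with only the 2 groups in the fit. Cdk4 shares 641 exon bases with Tspan31 on the opposite strand, which had 9312, 9179 and 8660 scaled counts in selenite livers, 8464, 7697 and 8424 in β-CYP livers, and 7559, 7625 and 7644 in control livers. Its order of groups was that of Cdk4, and the part of its reads in the Cdk4 values was not tested.

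Cyclin E1, Ccne1, had 141, 146 and 113 scaled counts in selenite livers, 44.7, 72.5 and 103 in β-CYP livers, and 64.8, 66.4 and 86.9 in control livers. The selenite values lay above all others, the nearest being β-CYP library 3. The log2 change was 0.92 ± 0.28 against β-CYP (limma adjusted p = 0.0388) and 0.87 ± 0.28 against control (limma adjusted p = 0.0425). The first call was lost on leaving out any one library other than β-CYP library 3 (limma adjusted p from 0.0523 to 0.12), and the second without any control or selenite library or β-CYP library 2 (0.0548 to 0.126). Both were also lost with no filter on low values, with quantile normalization and without the intensity trend. The first was lost with only the 2 groups in the fit, and the second with equal medians and with a replicate block. Each call held under 9 of 21 alternatives. Ccne2, the other E-type cyclin, averaged 53.8 ± 0.44 scaled counts in selenite livers, 49.2 ± 10.5 in β-CYP livers and 76.4 ± 8.52 in control livers (SD, n = 3 each). Its log2 change in β-CYP livers against control was -0.64 ± 0.19 (limma adjusted p = 0.0512), with no overlap between the groups, and passed under 6 of 21 alternatives (lowest adjusted p = 0.0226). Ccne2 shares 609 exon bases with Ints8 on the opposite strand, which had 522 to 736 scaled counts. Cdk2, the kinase of the E cyclins, averaged 215 ± 64.1 in selenite livers, 224 ± 53.4 in β-CYP livers and 229 ± 9.65 in control livers.

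E2f1, the activator of replication genes, fell in the livers where Cdk4 and Ccne1 rose. It had 45.1, 41.5 and 45.0 scaled counts in selenite livers, 97.8, 82.7 and 77.6 in β-CYP livers, and 93.1, 112 and 114 in control livers. The selenite libraries were close together and far below the rest, at 0.510 times the β-CYP mean and 0.413 times the control mean. The log2 change was -0.95 ± 0.16 against β-CYP (limma adjusted p = 0.00191) and -1.25 ± 0.16 against control (limma adjusted p = 0.000261). Of the 6 G1/S control genes none was called in β-CYP livers against control by limma, with 2 at an unadjusted p under 0.05 (27.9% of all tested genes) and 1 called with voom weights on whole reads.

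**Figure D4:**
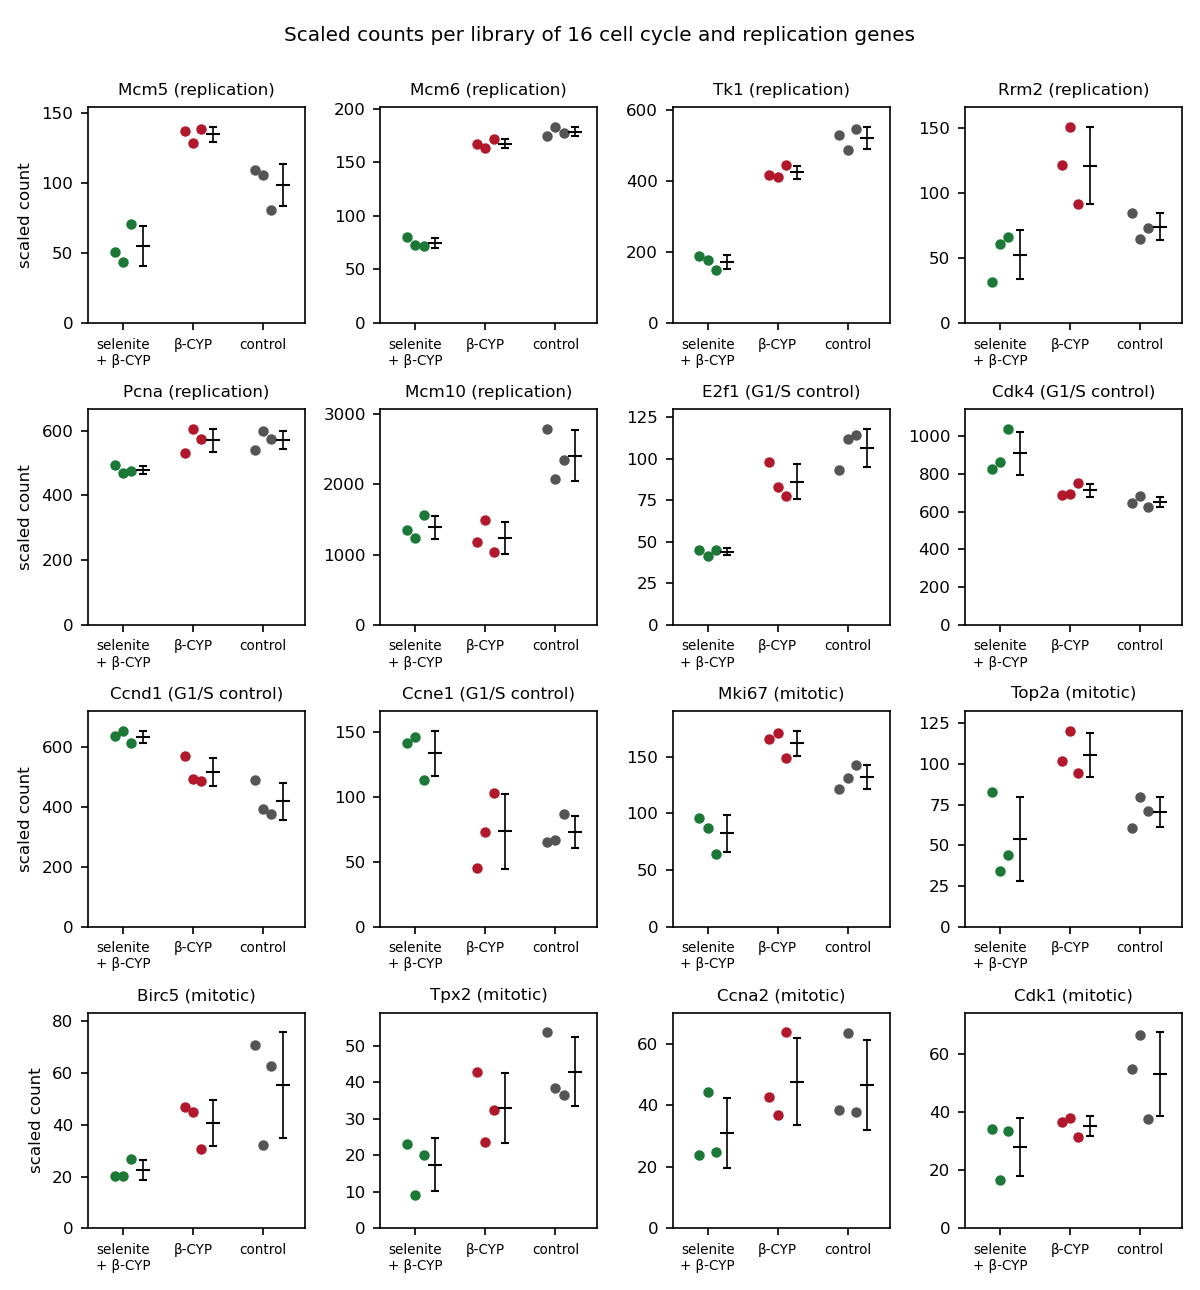
Scaled counts per library (y axes from 0, one scale per gene) of 16 genes in selenite livers (green), β-CYP livers (red) and control livers (grey), with the mean ± SD of 3 libraries beside the points. Mcm6, Tk1 and E2f1 show tight selenite groups below the rest, Cdk4, Ccnd1 and Ccne1 higher ones, and Ccna2 and Cdk1 wide scatter.

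Few of the mitotic genes passed the test, although most lay on the same side of 0. In selenite livers against β-CYP, 19 of 19 had a log2 change below 0, with a median of -0.82, beside 47.1% of all tested genes and 41.5% of the genes with a mean of 10 to 100 scaled counts. The test was passed by 2 of 19, both lower, where 12.3% of all tested genes and 5.66% of those in that range were called lower. Against control 16 of 19 were below 0 in selenite livers (47.7% of all tested genes), with a median of -0.58. Of the 3 above 0, Ccnb1 and Ccnb2 had means of 0.825 and 0.661 times control. The test was passed there by 3 of 19, all lower (15.8%, against 14.5% of all tested genes called lower). In β-CYP livers against control 4 of 19 were below 0 (50.2% of all tested genes), with a median of 0.18. That count moved with single libraries: it was 9 of 19 without control library 1 and without control library 2 (median 0.07 each), 8 without β-CYP library 3 and 7 without β-CYP library 2, and the median was 0.28 without β-CYP library 1 and without control library 3. None was called there by limma or with voom weights, and 1 of 19 had an unadjusted p under 0.05, against 27.9% of all tested genes. Mki67 and Top2a, 2 of the 19, were higher in β-CYP livers without overlap with control, as were 15.4% of all tested genes. The summed scaled counts were 538.6, 467.7 and 459.0 in selenite livers, 821.7, 845.4 and 843.0 in β-CYP livers, and 732.5, 742.9 and 773.7 in control livers, with no overlap between any 2 groups. Most of the step between control and β-CYP sums lay in Mki67 (means of 132 and 162) and Top2a (70.4 and 106), the genes with most reads. It is thus not a trait of the whole class.

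Mki67, which encodes a chromosome surface protein used as a marker of proliferation, had the most reads of the class. It had 95.8, 86.7 and 64.2 scaled counts in selenite livers, 165, 170 and 149 in β-CYP livers, and 121, 131 and 143 in control livers. The groups did not overlap, with selenite lowest and β-CYP highest. The log2 change was -0.98 ± 0.16 against β-CYP (limma adjusted p = 0.00173) and -0.69 ± 0.16 against control (limma adjusted p = 0.0105), and 0.29 ± 0.16 in β-CYP livers against control (limma adjusted p = 0.288).

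Top2a, the topoisomerase that untangles sister chromosomes, had 82.9, 34.1 and 44.1 scaled counts in selenite livers, 102, 120 and 94.3 in β-CYP livers, and 60.7, 79.5 and 70.9 in control livers. Selenite library 1 lay above all control libraries and the other selenite libraries below them. The log2 change was -1.06 ± 0.30 against β-CYP (limma adjusted p = 0.0277). This call was lost without any one β-CYP library or without selenite library 2 or 3 (limma adjusted p from 0.0545 to 0.0955), leaving 1 mitotic gene called without a β-CYP library. It was also lost with a replicate block, with only the 2 groups in the fit and without the intensity trend. Against control the change of -0.48 ± 0.30 did not pass (limma adjusted p = 0.277), and did without selenite library 1.

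Birc5, a subunit of the chromosomal passenger complex, had 20.2, 20.3 and 26.8 scaled counts in selenite livers, 46.8, 44.9 and 30.5 in β-CYP livers, and 70.8, 32.2 and 62.9 in control livers. Tpx2, a spindle assembly factor that activates Aurora A, had 23.0, 9.22 and 20.1 in selenite livers, 42.6, 23.5 and 32.4 in β-CYP livers, and 53.6, 38.2 and 36.6 in control livers. For both genes the selenite values lay below all others. For Tpx2 the margin to β-CYP was narrow and depended on the scaling, as selenite library 1 had 25 reads and β-CYP library 2 had 23. Both fell against control, Birc5 by a log2 change of -1.20 ± 0.33 (limma adjusted p = 0.0214) and Tpx2 by -1.32 ± 0.38 (limma adjusted p = 0.0258). Against β-CYP the changes were -0.82 ± 0.33 (limma adjusted p = 0.109) and -0.93 ± 0.38 (limma adjusted p = 0.113). The Birc5 call was lost without control library 1 or 3 or selenite library 1 or 2 (limma adjusted p from 0.0668 to 0.0804), and the Tpx2 call without any control library or selenite library 2 (0.0507 to 0.0907). The Tpx2 call was also lost with only the 2 groups in the fit. Without control library 1 a single mitotic gene was called against control.

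The mitotic cyclins and their kinase passed no test. Ccna2 (cyclin A2) had 23.9, 44.3 and 24.9 scaled counts in selenite livers, 42.6, 36.8 and 63.8 in β-CYP livers, and 38.5, 63.4 and 37.7 in control livers. Ccnb1 (cyclin B1) had 22.1, 7.38 and 16.3 in selenite livers, 42.6, 14.3 and 19.4 in β-CYP livers, and 28.3, 2.01 and 25.1 in control livers. All 3 groups overlapped for both cyclins. Ccna2 shares 510 exon bases with Exosc9 on the opposite strand, which had 216 to 380 scaled counts, more than Ccna2 in every library. Cdk1, the kinase that drives cells into mitosis, had 34.1, 16.6 and 33.5 scaled counts in selenite livers, 36.4, 37.8 and 31.4 in β-CYP livers, and 54.6, 66.4 and 37.7 in control livers. Its selenite values lay below all control values, at a log2 change of -0.92 ± 0.32 (limma adjusted p = 0.0606), and overlapped those of β-CYP. That difference passed under 3 of 21 alternatives: a minimum mean of 10, quantile normalization, and without control library 3.

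Of the mitotic kinases, Aurka (Aurora A, at the spindle poles) averaged 50.0 ± 13.7 scaled counts in selenite livers, 77.8 ± 9.66 in β-CYP livers and 75.5 ± 10.6 in control livers (SD, n = 3 each). Its log2 change against β-CYP was -0.66 ± 0.23 (limma adjusted p = 0.0651), and passed under 3 of 21 alternatives: a minimum mean of 10, quantile normalization, and without selenite library 3. Aurkb (Aurora B, the passenger complex kinase) averaged 13.7 ± 2.76 in selenite livers, 28.9 ± 12.6 in β-CYP livers and 11.3 ± 7.68 in control livers, and Plk1 (Polo-like kinase) 6.49 ± 6.36 in selenite livers, 14.8 ± 3.83 in β-CYP livers and 13.5 ± 8.59 in control livers. Plk1 was called in selenite livers without selenite library 2, against both β-CYP and control. The remaining 9 genes passed no test in any comparison: the transcription factor Foxm1, cyclin B2 (Ccnb2), the spindle checkpoint genes Bub1 and Bub1b, their target Cdc20, the motor proteins Cenpe, Kif11 and Kif20a, and the midzone protein Prc1. Exons of Kif20a and Cdc23 overlap by 1271 bases and those of Prc1 and Rccd1 by 911, on opposite strands, and Cdc23 had 313 to 448 scaled counts. Among the 9 genes Cenpe had the lowest log2 change against β-CYP, -1.85 ± 0.96 (limma adjusted p = 0.213), with 21.2, 2.77 and 0 scaled counts in selenite livers and 12.5, 21.4 and 12.0 in β-CYP livers. It was called without selenite library 1, the one high library. Without overlap, 6 of 19 mitotic genes were lower in selenite livers than in β-CYP livers (18.5% of all tested genes), and 5 of 19 lower than in control (20.4%).

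The wider pathway was read from lists of genes other than the 41. Of 37 other replication genes tested, 2 rose and 7 fell in selenite livers against β-CYP, and 5 rose and 9 fell against control. These calls are 24.3% and 37.8% of the 37, against 23.9% and 28.9% of all tested genes. Their median log2 change was -0.14 against β-CYP, beside 0.02 for all tested genes. Against control 19 of the 37 were below 0, with a median of 0.00, beside 47.7% and 0.03 for all tested genes. Uhrf1, which brings the maintenance methyltransferase to copied DNA, had 2.76, 9.22 and 2.88 scaled counts in selenite livers, 47.8, 28.6 and 35.1 in β-CYP livers, and 14.2, 44.3 and 14.9 in control livers, a log2 change of -2.82 ± 0.54 against β-CYP (limma adjusted p = 0.00420). Dbf4, the activator of the origin kinase Cdc7, had 35.0, 40.6 and 39.3 scaled counts in selenite livers, 70.7, 60.2 and 72.1 in β-CYP livers, and 77.9, 73.5 and 77.7 in control livers, a log2 change of -0.80 ± 0.16 against β-CYP (limma adjusted p = 0.00551). The replicative ligase Lig1 (-0.79 ± 0.20), the polymerase Pole (-1.34 ± 0.41) and the chromatin assembly subunit Chaf1b (-0.76 ± 0.25) also fell against β-CYP on the log2 scale. Against these, the flap nuclease Fen1 rose: it had 228, 173 and 179 scaled counts in selenite livers, 89.5, 85.8 and 68.4 in β-CYP livers, and 103, 78.5 and 94.9 in control livers, a log2 change of 1.24 ± 0.17 against β-CYP (limma adjusted p = 0.000568). Fen1 exons overlap those of Tmem258 on the opposite strand by 130 bases. In β-CYP livers against control 2 of the 37 rose and 1 fell (8.11%, against 16.3% of all tested genes).

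Of 45 other mitotic genes, 35 had a log2 change below 0 in selenite livers against β-CYP, with a median of -0.57, but 2 fell and 2 rose, or 8.89% of the 45, against 23.9% of all tested genes. Ect2, the exchange factor that starts the cleavage furrow, had 54.3, 46.1 and 42.2 scaled counts in selenite livers, 85.3, 103 and 115 in β-CYP livers, and 151, 131 and 178 in control livers. It fell against β-CYP (log2 change -1.07 ± 0.18, limma adjusted p = 0.00189) and against control (-1.67 ± 0.18, limma adjusted p = 8.3e-05). The kinetochore gene Nuf2 had 0, 0 and 7.67 scaled counts in selenite livers, 12.5, 16.3 and 17.6 in β-CYP livers, and 10.1, 20.1 and 10.3 in control livers, and was called lower in selenite livers against β-CYP and against control. Cks1b and Cks2, small binding partners of the cell cycle kinases, rose against β-CYP, by 0.68 and 0.33 on the log2 scale. Against control 3 of the 45 genes fell in selenite livers and none rose, and in β-CYP livers 1 rose and 2 fell (6.67% in each comparison, against 28.9% and 16.3% of all tested genes).

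Of 10 inhibitors of the cycle and pocket proteins, 1 rose and 1 fell in selenite livers against β-CYP, 2 rose and 2 fell in selenite livers against control, and 1 rose and 1 fell in β-CYP livers against control. These are 20.0%, 40.0% and 20.0% of the list, against 23.9%, 28.9% and 16.3% of all tested genes. Cdkn1a, which encodes the kinase inhibitor p21, had 197, 248 and 252 scaled counts in selenite livers, 385, 372 and 352 in β-CYP livers, and 50.6, 17.1 and 76.6 in control livers. Both treated groups were above control without overlap, and β-CYP was above selenite. It rose in β-CYP livers against control by a log2 change of 3.15 ± 0.43 (limma adjusted p = 0.000684) and in selenite livers against control by 2.48 ± 0.43 (limma adjusted p = 0.00175). Between selenite and β-CYP livers the change of -0.67 ± 0.43 did not pass (limma adjusted p = 0.314). The pocket protein Rbl1 had 115, 112 and 72.8 scaled counts in selenite livers, 57.2, 48.0 and 41.6 in β-CYP livers, and 54.6, 74.5 and 46.9 in control livers, and rose against β-CYP (limma adjusted p = 0.0162). Its relative Rbl2 fell against β-CYP, by a log2 change of -0.26 ± 0.05 (limma adjusted p = 0.00412).

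Of 25 other genes of G1/S control, 3 rose and 1 fell in selenite livers against β-CYP, and 6 rose and 2 fell against control, that is 4 and 8 of the 25, against 23.9% and 28.9% of all tested genes. Wee1, the kinase that restrains Cdk1, had 295, 260 and 274 scaled counts in selenite livers, 123, 172 and 114 in β-CYP livers, and 205, 257 and 216 in control livers. It fell in β-CYP livers against control (log2 change -0.75 ± 0.16, limma adjusted p = 0.0107) and rose in selenite livers against β-CYP (1.04 ± 0.16, limma adjusted p = 0.00109). Skp2, the ligase subunit that marks kinase inhibitors for breakdown, had 116, 122 and 127 scaled counts in selenite livers, 58.2, 69.4 and 72.1 in β-CYP livers, and 76.9, 42.3 and 77.7 in control livers. It rose by 0.87 ± 0.23 on the log2 scale against β-CYP (limma adjusted p = 0.0241). Mybl2, which encodes the B-Myb partner of MuvB, averaged 11.2 ± 2.36 scaled counts in selenite livers, 9.77 ± 3.84 in β-CYP livers and 6.92 ± 6.07 in control livers (SD, n = 3 each) and passed no test.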

How the data were processed

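RNA was measured by sequencing in 9 liver libraries, per the labels' protocols with Trizol and a TruSeq kit. The labels' protocol names a BGISEQ instrument and the series' design a HiSeq one. The authors deposited log2 values, which were checked and equal log2 of a read count over a size factor, plus 1. Whole reads were recovered for 100% of values (tolerance 0.02), and the factors matched median-of-ratios factors in 9 of 9 libraries, a scaling that assumes that most genes are unchanged. The submitters' processing notes list HISAT, Cufflinks and mm9. Exon lengths and overlaps are from GENCODE for GRCm38, another build, matched by identifier.

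With limma 3.58.1 (R 4.3.3), log2(scaled count + 1) was modelled by group over all 9 libraries, with an intensity trend, for the 20145 genes averaging 1 scaled count or more. Two-sided p-values were adjusted by Benjamini-Hochberg over all tested genes, with calls under 0.05. The change of a low gene on this scale can differ from its ratio of means in size and sign, as libraries near 0 weigh heavily. Cenpe in selenite livers against β-CYP had a log2 change of -1.85 at a ratio of 0.521. Bub1 in β-CYP livers against control had 0.32 at a ratio of 0.79. Alternatives were other pseudocounts (0.1 and 5), filters, scalings, a replicate block, 2-group fits, no trend, voom weights and leaving out each library. Same-numbered libraries did not deviate together.

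The members, lists and rules were chosen with earlier results of these data known. Values per library are given for members called in any comparison and for Mki67, Top2a, Pcna, Mcm2, Ccna2, Ccnb1, Cdk1, Ccnd1 and Ccne1; of other lists, called genes may be named, with Cdkn1a and Mybl2 always.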

Additional observations from a re-analysis of the deposited data

How the results depend on the processing

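Of 24 called results for single genes, each under 21 alternatives, all 504 values kept their direction and 63 were no longer called. Under every alternative run, 14 stayed called: Mcm10 in both comparisons with control, Mcm5, Mcm6, Tk1, E2f1 and Mki67 in both comparisons of selenite livers, and Ccnd1 and Cdk4 in selenite livers against control. Of 99 uncalled results, 17 were called under at least 1 alternative. Replication genes called in β-CYP livers against control numbered 1, and 2 with a minimum mean of 10, with only the 2 groups in the fit and with voom weights. Mitotic genes called in selenite livers against β-CYP numbered 2, and 1 with only the 2 groups in the fit and without the intensity trend, and 3 with a minimum mean of 10 and with quantile normalization. Against control they numbered 3, and 2 with only the 2 groups in the fit, 4 with a minimum mean of 10 and 5 with quantile normalization. Leaving out 1 library gave 1 to 2 replication genes in β-CYP livers against control, 3 to 5 in selenite livers against β-CYP and 4 to 6 against control, and 1 to 3 and 1 to 4 mitotic genes in the comparisons of selenite livers with β-CYP and with control. The cause was not tested, apart from the fewer libraries in such fits. With equal library totals the median log2 change of all genes was 0.14 in selenite livers against β-CYP and 0.16 against control, beside 0.02 and 0.03 with the deposited scaling.

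Same-numbered libraries correlated at -0.11 to 0.094 in their deviations, so the numbers were not taken as pairs. With a replicate block 2956, 4481 and 5506 genes were called in β-CYP against control, selenite against β-CYP and selenite against control, beside 3285, 4805 and 5823 without it. In the same order it gave 2, 5 and 6 replication genes and 0, 1 and 3 mitotic genes. Most mitotic genes have 10 to 100 reads a library, where 14.8% of genes were called against β-CYP, against 27.9% at 100 to 1000.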

Other observations

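Among 18 tested genes of liver growth signals, 4 rose and 3 fell in selenite livers against β-CYP, 5 rose and 3 fell in selenite livers against control, and 3 rose and 3 fell in β-CYP livers against control. These are 38.9%, 44.4% and 33.3% of the list, against 23.9%, 28.9% and 16.3% of all tested genes. Hgf, the growth factor for hepatocytes that stellate cells secrete, had 424, 402 and 388 scaled counts in selenite livers, 285, 298 and 318 in β-CYP livers, and 328, 269 and 273 in control livers. It rose in selenite livers against β-CYP by a log2 change of 0.43 and against control by 0.49. The stellate cell markers also summed highest there, at 6838 to 7445 reads in selenite libraries, 5653 to 6652 in β-CYP libraries and 5024 to 5536 in control libraries, and their part in the Hgf values was not tested. Myc, a growth-promoting transcription factor, had 76.4, 85.8 and 102 scaled counts in selenite livers, 113, 65.3 and 58.2 in β-CYP livers, and 123, 219 and 189 in control livers. It fell against control by a log2 change of -0.97 in selenite livers and of -1.18 in β-CYP livers, while the early response gene Jun rose by 0.93 in selenite livers and by 0.75 in β-CYP livers.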
